A study of Mus musculus with 10 samples.

Results

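The genes described here encode neuronal RNA-binding and splicing proteins: the Hu family (Elavl1, Elavl2, Elavl3 and Elavl4), Rbfox3, Nova1, Nova2, Ptbp1, Ptbp2 and Srrm4. Every probe of the array whose gene name was one of these 10 was taken, which gave 17 probes of the 55681 distinct probes and 36161 gene names of the array. All 17 probes passed the filter on dim probes, under which 30857 probes and 22263 genes were tested. The values come from neuroblastomas of 10 untreated transgenic mice, 1 tumour and 1 array per mouse. In 5 mice (ALK/MYCN, labelled ALK+/-, MYCN+/-) a MYCN transgene was combined with mutant ALK (F1174L), a receptor tyrosine kinase, on a C57BL/6 x 129X1/SvJ background. In the other 5 (MYCN, labelled MYCN+/-) the MYCN transgene was present alone, on 129X1/SvJ. Genotype and strain background therefore cannot be told apart in any difference, and the promoters that drive the transgenes and the ages of the mice are not given in the sources used here. Tumour RNA labelled with Cy3 was hybridised together with a Cy5-labelled reference pooled from 11 mouse cell lines, so a value is log2 of the tumour signal over that of the reference.

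Hu proteins bind U-rich and AU-rich stretches of RNA in introns and 3' untranslated regions and change splicing, polyadenylation, stability and translation. Elavl1 (HuR) is made in nearly all cells, whereas Elavl2 (HuB), Elavl3 (HuC) and Elavl4 (HuD) are largely neuronal, and Hu antigens are familiar markers of neuroblastic tumours. Ptbp1 represses neuronal exons in cells that are not neurons and gives way to its neuronal paralogue Ptbp2 as neurons form. Srrm4 (nSR100) promotes the inclusion of neuronal microexons, the Nova proteins and the Rbfox family act on other sets of neuronal exons, and Rbfox3 is the antigen NeuN.

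ALK/MYCN tumours had higher levels of Elavl2, Elavl4 and Srrm4. Levels of Ptbp1 were lower, as was the Elavl1 signal at the brighter of its 2 probes. Ptbp2 was also higher, but its groups overlapped and its call held in only 9 of 25 alternative settings. With each gene represented by its brightest probe, 4 of the 10 members rose and 2 fell at an adjusted p of 0.05 (limma, Benjamini-Hochberg over 22263 genes). Over all genes 26.5% were called, 14.2% higher and 12.2% lower. Elavl3, Rbfox3, Nova1 and Nova2 did not pass. The median difference of the 10 members was 0.23 on the log2 scale, against -0.0036 for all genes. The groups did not overlap for 5 members, where 19.9% of all genes had no overlap. Tested probe by probe, 8 of the 17 rose and 3 fell, against 13.7% higher and 11.2% lower among 30857 probes. In these bulk tumours, fewer cells of a type and less RNA per cell cannot be told apart.

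**Figure D1:**
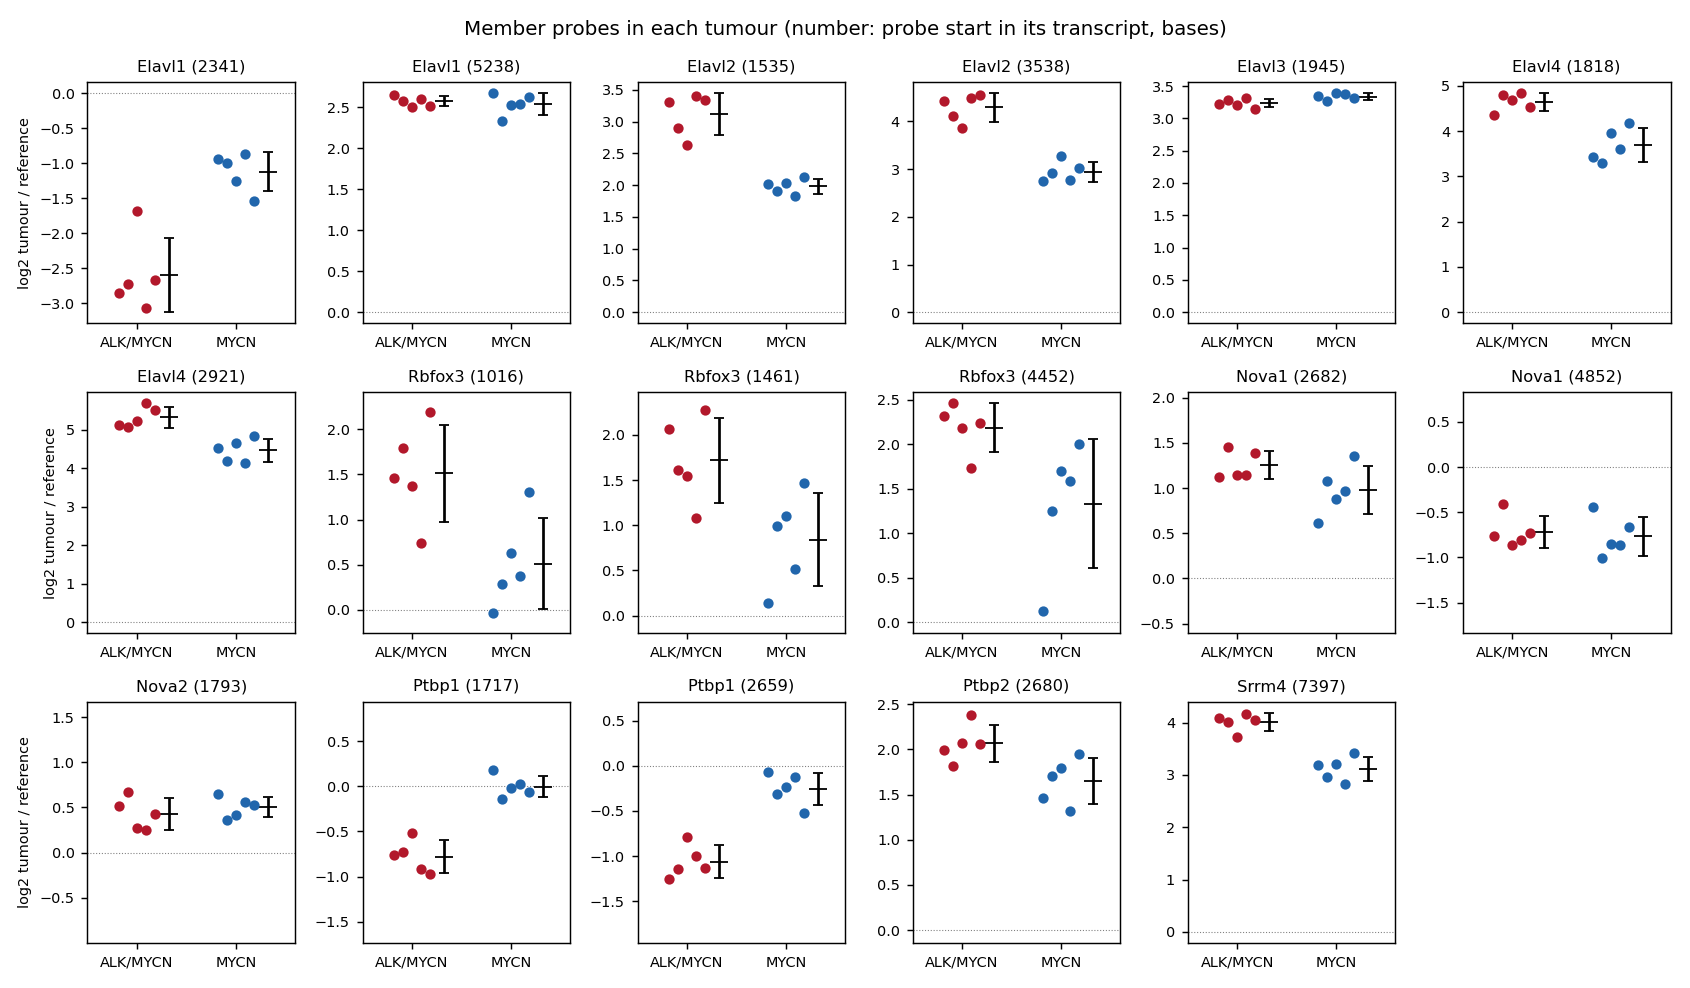
Log2 ratio of tumour over reference (vertical axes, each with its own range) of the 17 member probes in the 5 ALK/MYCN (red) and 5 MYCN tumours (blue), with the group mean and SD in black; the number after a gene is the start of the probe in its transcript in bases. The groups are apart for the Elavl1 probe at base 2341, both Elavl2 and both Elavl4 probes, both Ptbp1 probes and Srrm4.

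Of the members called, Elavl1, Ptbp1, Ptbp2 and Srrm4 each have a single start site among the promoter windows of RefSeq (build GRCm38.p6), which are shown because these transcripts moved in opposite directions. The windows run from 250 bases before to 50 after the start. They lie at chr8:4325051-4325350 (minus strand), chr10:79854182-79854481 (plus strand), chr3:119783339-119783638 (minus strand) and chr5:116591768-116592067 (minus strand). Capitals mark the E-box CACGTG (the site of MYC and MAX dimers), the E-box variant CAGCTG and the GC box GGGCGG, searched on both strands.
Elavl1: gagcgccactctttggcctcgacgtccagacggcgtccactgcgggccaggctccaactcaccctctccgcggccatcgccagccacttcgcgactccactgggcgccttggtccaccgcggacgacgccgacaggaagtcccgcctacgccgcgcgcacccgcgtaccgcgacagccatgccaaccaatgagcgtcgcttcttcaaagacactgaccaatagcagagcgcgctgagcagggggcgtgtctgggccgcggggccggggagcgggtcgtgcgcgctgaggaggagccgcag
Ptbp1: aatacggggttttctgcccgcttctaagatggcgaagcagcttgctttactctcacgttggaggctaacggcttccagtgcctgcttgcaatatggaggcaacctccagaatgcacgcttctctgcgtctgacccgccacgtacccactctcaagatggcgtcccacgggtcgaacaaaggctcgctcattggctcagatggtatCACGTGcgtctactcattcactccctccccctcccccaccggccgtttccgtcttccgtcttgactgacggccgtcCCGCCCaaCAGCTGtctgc
Ptbp2: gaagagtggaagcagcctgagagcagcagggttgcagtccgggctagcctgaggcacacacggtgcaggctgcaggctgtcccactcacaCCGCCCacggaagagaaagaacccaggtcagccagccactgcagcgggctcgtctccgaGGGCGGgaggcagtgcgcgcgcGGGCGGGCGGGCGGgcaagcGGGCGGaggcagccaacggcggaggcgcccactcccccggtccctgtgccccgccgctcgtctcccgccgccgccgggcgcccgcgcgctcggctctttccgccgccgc
Srrm4: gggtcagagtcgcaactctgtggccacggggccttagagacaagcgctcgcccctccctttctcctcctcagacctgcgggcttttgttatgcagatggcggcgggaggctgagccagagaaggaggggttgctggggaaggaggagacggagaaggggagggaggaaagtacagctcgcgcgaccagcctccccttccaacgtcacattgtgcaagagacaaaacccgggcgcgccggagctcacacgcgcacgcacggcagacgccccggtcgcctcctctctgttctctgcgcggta
The CACGTG hexamer was found at 45 bases before the start of Ptbp1 and in none of the other 17 windows of the 10 members, and 7.15% of all 32851 windows hold it. CAGCTG was found 40 bases after the start of Ptbp1 and in windows of Elavl2, Elavl3, Elavl4 and Nova1. These are 8 of the 18 member windows, against 16.3% of all windows. GGGCGG occurred 6 times in the Ptbp2 window, where 3 copies overlap, and once in that of Ptbp1. With windows of Elavl2, Elavl3 and Nova2, it was in 9 of the 18 member windows, against 35.7% of all windows. Some member windows of the same gene overlap. The windows of Elavl1 and Srrm4 held none of these. A match is a description of these letters and not a measured site.

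Among the neuronal Hu genes, Elavl2 rose most. Its probe at base 3538 of the transcript (chr4:90917989-90918048, build mm9, minus strand) gave 4.42, 4.11, 3.86, 4.49 and 4.56 in ALK/MYCN tumours, against 2.75, 2.92, 3.27, 2.78 and 3.02 in MYCN tumours. Every ALK/MYCN tumour lay above every MYCN tumour, and ALK/MYCN 3 was the lowest of its group. The difference was 1.34 ± 0.15 (SE, limma adjusted p = 5.41e-04), a 2.54-fold higher level, larger than that of 98.8% of the tested genes. Each slide held both groups, with 1 ALK/MYCN and 1 MYCN tumour on slide 1, 3 and 1 on slide 2, and 1 and 3 on slide 3. Within slides 1, 2 and 3 the Elavl2 difference was 1.36, 1.48 and 1.49. A second Elavl2 probe, at base 1535 (chr4:90919992-90920051, minus strand), gave 3.30, 2.91, 2.64, 3.40 and 3.34 in ALK/MYCN tumours, against 2.02, 1.91, 2.04, 1.82 and 2.14 in MYCN tumours, again without overlap. Its difference was 1.13 ± 0.15 (limma adjusted p over probes = 8.63e-04). The reference channel at this probe was well above background on 1 of 10 arrays, and with the scanner-processed signals its difference of 0.96 did not pass (limma adjusted p = 0.139).

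Elavl4, which stabilises mRNAs of growing axons such as that of Gap43, also rose. Its probe at base 2921 (chr4:109877455-109877514, minus strand) gave 5.12, 5.08, 5.24, 5.70 and 5.51 in ALK/MYCN tumours, against 4.53, 4.1998, 4.65, 4.15 and 4.85 in MYCN tumours. The groups were apart, with MYCN 5 next to the ALK/MYCN range. The mean ratio put Elavl4 at 40.2 times the reference in ALK/MYCN and 22.2 times in MYCN tumours, and the difference was 0.86 ± 0.17 (SE, limma adjusted p = 0.00540). Slide differences for Elavl4 were 0.55, 1.21 and 0.94, and after scaling between arrays the difference was 0.56 (limma adjusted p = 0.0140). The Elavl4 probe at base 1818 (chr4:109878558-109878617, minus strand) gave 0.95 ± 0.17 (limma adjusted p over probes = 0.00406), also without overlap between the groups. There the reference was well above background on 1 array, and the scanner-processed signals gave 0.55 (limma adjusted p = 0.362). With the mean of endothelial, macrophage and fibroblast markers as a covariate, Elavl4 was at 0.71 and just missed the threshold (limma adjusted p = 0.0554).

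Elavl3 was close to constant. Its single probe (chr9:21822471-21822530, minus strand) gave 3.22, 3.28, 3.21, 3.32 and 3.15 in ALK/MYCN tumours, against 3.34, 3.26, 3.39, 3.37 and 3.31 in MYCN tumours. These 10 values spanned a narrow range, and the groups overlapped. The mean was 3.24 ± 0.064 in ALK/MYCN tumours, against 3.34 ± 0.050 in the MYCN group (SD, n = 5 each), that is 9.42 times the reference in ALK/MYCN and 10.1 times in MYCN tumours. The difference of -0.099 ± 0.056 (SE) did not pass (limma adjusted p = 0.218), and its sign turned when arrays were centred on the spike-ins (0.15) or Cy3 was used alone (0.16). After scaling between arrays it was -0.30 and passed (limma adjusted p = 0.0412).

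The ubiquitous family member Elavl1 was read by 2 probes that gave opposite pictures. The probe at base 2341 of the transcript (chr8:4288411-4288470, mm9, minus strand) gave -2.85, -2.72, -1.68, -3.06 and -2.67 in ALK/MYCN tumours, against -0.94, -1.0028, -1.26, -0.87 and -1.54 in MYCN tumours. All 10 tumours lay below the reference here and all ALK/MYCN tumours below all MYCN tumours, although ALK/MYCN 3 stood close to MYCN 5. The level was 6.05 times lower than the reference in ALK/MYCN and 2.18 times lower in MYCN tumours, and the difference between the groups was -1.47 ± 0.24 (SE, limma adjusted p = 0.00260). On slides 1, 2 and 3 this difference was -1.78, -1.66 and -1.40. The probe at base 5238 (chr8:4285514-4285573, minus strand), farther toward the 3' end of the same transcript, gave 2.65, 2.57, 2.51, 2.60 and 2.52 in ALK/MYCN tumours, against 2.67, 2.33, 2.52, 2.54 and 2.63 in MYCN tumours. These tumours were all above the reference and the groups overlapped, with a difference of 0.033 ± 0.074 (limma adjusted p over probes = 0.778).

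The gap between the Elavl1 probes, base 5238 minus base 2341 within each tumour, was 5.50, 5.29, 4.19, 5.67 and 5.19 in ALK/MYCN tumours, against 3.61, 3.34, 3.78, 3.40 and 4.17 in MYCN tumours. ALK/MYCN 3 and MYCN 5 nearly met, and the other tumours were well apart. The gap was larger in ALK/MYCN tumours by 1.51 ± 0.26 (SE, limma adjusted p = 0.00485 over 8594 pairs of probes of the same gene, of which 14.0% were called). Its absolute size, averaged over all tumours, exceeded that of 99.9% of those pairs. With the stromal covariate the difference in the gap was 1.12 and did not pass (limma adjusted p = 0.0679). Elavl1 transcripts are known to differ in the length of their 3' untranslated region, with longer forms in neurons. Whether the gap reflects such forms, a base difference between the mouse strains under a probe, or another property of the probes was not tested. Of the other members with several probes, none had a pair that differed between the groups, with 0 higher and 1 lower at an unadjusted p under 0.05 (limma adjusted p between 0.144 and 0.971).

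**Figure D2:**
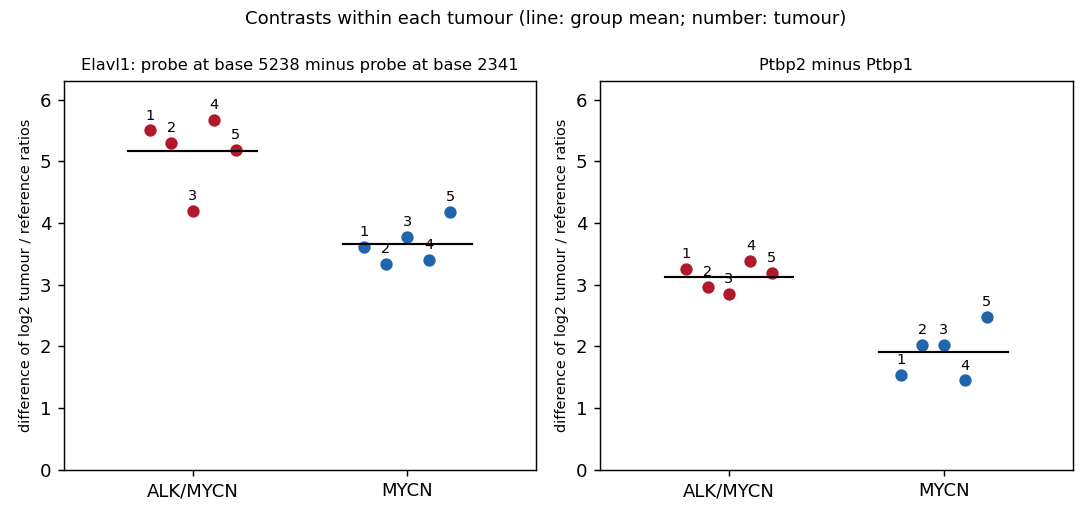
Differences of log2 ratios (vertical axes) within each of the 5 ALK/MYCN (red) and 5 MYCN tumours (blue), for the Elavl1 probe at base 5238 minus that at base 2341 (left) and for Ptbp2 minus Ptbp1 (right); lines are group means and numbers name the tumour. Both contrasts are larger in every ALK/MYCN tumour than in any MYCN tumour.

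Of the polypyrimidine tract binding proteins, Ptbp1 fell at both of its probes. The probe at base 2659 (chr10:79326905-79326963, plus strand) gave -1.26, -1.15, -0.79, -0.9980 and -1.13 in ALK/MYCN tumours, against -0.072, -0.32, -0.23, -0.13 and -0.53 in MYCN tumours. All ALK/MYCN tumours were lower than all MYCN tumours. Ptbp1 fell by 0.81 ± 0.11 (SE, limma adjusted p = 0.00115), which leaves 0.572 times the MYCN level. The slide differences of Ptbp1 were -1.07, -0.88 and -0.77. The probe at base 1717 (chr10:79325963-79326022, plus strand) gave -0.76, -0.72, -0.52, -0.92 and -0.98 in ALK/MYCN tumours, against 0.17, -0.15, -0.019, 0.020 and -0.059 in MYCN tumours, with a difference of -0.77 ± 0.097 (limma adjusted p over probes = 7.66e-04). In MYCN tumours this ratio was near 0, the level of the reference cell lines.

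Ptbp2 was higher by a smaller amount, and its call was not firm. Its probe (chr3:119422284-119422343, minus strand) gave 2.00, 1.82, 2.07, 2.38 and 2.06 in ALK/MYCN tumours, against 1.46, 1.70, 1.79, 1.32 and 1.95 in MYCN tumours. The groups overlapped, since ALK/MYCN 2 lay below MYCN 5. The difference of 0.42 ± 0.14 (SE, limma adjusted p = 0.0469) was positive on each slide, at 0.36, 0.83 and 0.24, but passed in only 9 of 25 alternative settings (limma adjusted p between 0.00544 and 0.198). With spike-in centring it was 0.67. It lost its call when any of ALK/MYCN 1, 3, 4 and 5 or MYCN 1, 2, 3 and 4 was left out. Set against each other within a tumour, Ptbp2 minus Ptbp1 was 3.25, 2.97, 2.86, 3.38 and 3.19 in ALK/MYCN tumours, against 1.53, 2.02, 2.03, 1.45 and 2.48 in MYCN tumours. The means were 3.13 ± 0.21 in ALK/MYCN tumours, against 1.90 ± 0.42 in the MYCN group (SD, n = 5 each), with no overlap; each is a difference of ratios to the same reference and was given no test.

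Srrm4, the microexon regulator, rose. Its probe (chr5:116889300-116889359, minus strand) gave 4.10, 4.01, 3.72, 4.17 and 4.06 in ALK/MYCN tumours, against 3.18, 2.97, 3.22, 2.82 and 3.41 in MYCN tumours. Every ALK/MYCN tumour was above every MYCN tumour, and MYCN 5 was the nearest to ALK/MYCN 3. The difference was 0.89 ± 0.12 (SE, limma adjusted p = 0.00115), a 1.86-fold higher level, with slide differences of 0.83, 1.17 and 0.86. Against the reference, Srrm4 stood at 16.1 times in ALK/MYCN and 8.70 times in MYCN tumours. Its call held in all 25 alternative settings, as did those of Elavl1, Elavl2 and Ptbp1 as genes.

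Rbfox3 had the widest spread of the members in MYCN tumours. Its brightest probe, at base 4452 (chr11:118351107-118351166, minus strand), gave 2.32, 2.46, 2.18, 1.74 and 2.24 in ALK/MYCN tumours, against 0.12, 1.25, 1.70, 1.58 and 2.00 in MYCN tumours. MYCN 1 was far below the other MYCN tumours and MYCN 5 lay within the ALK/MYCN range. The difference of 0.86 ± 0.31 (SE) did not pass (limma adjusted p = 0.0678), and on slides 1, 2 and 3 it was 2.34, 0.50 and 0.58. This difference passed in 5 of 25 alternative settings. They were median centring (1.02, limma adjusted p = 0.0379), spike-in centring, Cy3 alone, the mean over probes and leaving out MYCN 5. Without MYCN 5 the difference was 1.02 (limma adjusted p = 0.0400), and without MYCN 1, the MYCN tumour of slide 1, it was smaller, at 0.55 (limma adjusted p = 0.0504). The Rbfox3 probes at bases 1461 (chr11:118357666-118357725) and 1016 gave 0.88 ± 0.28 and 1.00 ± 0.29 and passed (limma adjusted p over probes = 0.0440 and 0.0325), with overlap of the groups in each. The reference was well above background on 5 arrays at base 1461 and on 0 of 10 at base 1016. With the scanner-processed signals the differences were 0.81 at base 1461 and 2.12 at base 1016, and neither passed (limma adjusted p = 0.234 and 0.0689). A normexp offset of 16 also ended both calls (limma adjusted p = 0.0883 and 0.0516). Each of these was well above background in 5 ALK/MYCN and 4 MYCN tumours, the array file places 34 bases of the probe at base 1016 (chr11:118351074-118351107), and their calls were lost when any of 7 tumours for base 1016 or 8 tumours for base 1461 was left out. With Cy3 alone, that is without the reference, Rbfox3 was 1.97 higher in ALK/MYCN tumours at its brightest probe (limma adjusted p = 0.0128).

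The Nova genes did not pass at any of their 3 probes. The Nova1 probe at base 4852 (chr12:47797592-47797651, minus strand) averaged -0.72 ± 0.18 in ALK/MYCN tumours, against -0.77 ± 0.22 in the MYCN group (SD, n = 5 each), and the groups differed by 0.049 ± 0.12 (SE, limma adjusted p = 0.799). The Nova1 probe at base 2682 (chr12:47799762-47799821, minus strand) averaged 1.25 ± 0.16 in ALK/MYCN tumours, against 0.98 ± 0.27 in MYCN tumours, and its difference of 0.27 ± 0.13 did not pass either (limma adjusted p over probes = 0.156). The reference was well above background at that probe on 2 of 10 arrays. This probe passed with spike-in centring (0.53), with Cy3 alone (0.37) and without MYCN 5 (0.37), at a limma adjusted p of 0.0165, 0.0184 and 0.0476. Nova2 (chr7:19544090-19544149, plus strand) averaged 0.43 ± 0.17 in ALK/MYCN tumours, against 0.50 ± 0.11 in MYCN tumours, and the groups differed by -0.078 ± 0.095 (SE, limma adjusted p = 0.578). The groups overlapped at all 3 probes. The sign of the difference turned in 4 of 25 settings for Nova1 and in 2 for Nova2.

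**Figure D3:**
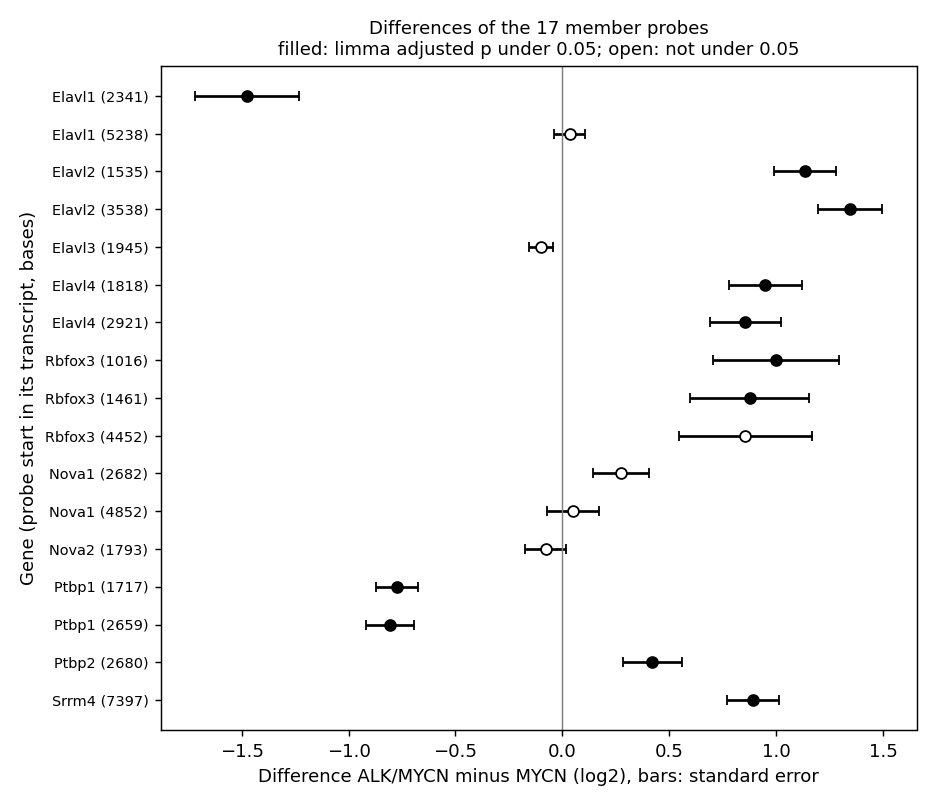
Difference ALK/MYCN minus MYCN on the log2 scale (horizontal axis) with its standard error for each of the 17 member probes, filled where the limma adjusted p over 30857 probes was under 0.05 and open where it was not. Elavl2, Elavl4 and Srrm4 lie right of 0 and Ptbp1 left of it at every probe, while the Elavl1 probes differ from each other.

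Other splicing regulators that act in neurons or in single tissues moved in both directions. Of the 20 measured of 21 listed, 6 rose and 3 fell, with a median difference of -0.027, against -0.0036 for all genes. Among all genes 14.2% rose and 12.2% fell. The list median became 0.23 after spike-in centring and 0.088 after median centring, where that of all genes was 0.25 and 0.094. Mbnl3, a muscleblind family gene, fell by 2.50 ± 0.16 (SE, limma adjusted p = 4.69e-05), to 0.177 times the MYCN level. Khdrbs3 (T-STAR), a regulator of neurexin splicing, rose by 1.11 ± 0.084 (limma adjusted p = 1.07e-04). Rbfox2, the broadly expressed paralogue of Rbfox3, rose by 0.70 ± 0.091, and the CELF family genes Celf4 and Celf6 rose by 0.95 ± 0.14 and 0.91 ± 0.18 (limma adjusted p = 9.27e-04, 0.00147 and 0.00624). None of these 5 had overlapping groups. Among 19 measured of 20 RNA-binding proteins of translation and transport, 5 rose and 1 fell, with a median of -0.073. It became 0.18 after spike-in centring and 0.066 after median centring, below the median of all genes in each setting. Igf2bp3, an oncofetal mRNA-binding protein gene, rose by 2.75 ± 0.42, Rbms3 by 1.07 ± 0.14, Msi2 by 0.40 ± 0.072 and Cpeb4, a cytoplasmic polyadenylation factor gene, by 0.64 ± 0.12 (limma adjusted p = 0.00177, 8.34e-04, 0.00410 and 0.00504). Msi2 did not pass with Cy3 alone (0.34, limma adjusted p = 0.0569). Fmr1, the fragile X gene, was the member of this list that fell, by 0.35 ± 0.091 (limma adjusted p = 0.0206). It did not pass with spike-in centring (-0.092), median centring, the scanner-processed signals or Cy3 alone (limma adjusted p between 0.0545 and 0.511).

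Among 28 general SR, hnRNP and core splicing factors, 1 rose, 7 fell and 20 did not pass. Over all genes 14.2% rose and 12.2% fell. The list median was -0.10, against -0.0036 for all genes. The direction of the list depended on the scaling: with spike-in centring 9 rose and 1 fell (median 0.15), and with median centring 1 rose and 1 fell (median 0.031). Over all genes 39.6% rose and 3.75% fell with spike-in centring, which moved the median of all genes to 0.25. Median centring moved it to 0.094. Srsf7 fell by 0.51 ± 0.071, U2af1 by 0.29 ± 0.073, Srsf9 by 0.29 ± 0.067 and Srsf3 by 0.23 ± 0.065 (SE, limma adjusted p = 0.00121, 0.0160, 0.0126 and 0.0263), while Sf3b1, of the U2 particle, rose by 0.37 ± 0.065 (limma adjusted p = 0.00366). Of these, U2af1, Srsf9 and Srsf3 did not pass with spike-in centring (-0.039, -0.033 and 0.022), median centring or Cy3 alone.

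REST represses neuronal genes, Srrm4 among them, and Srrm4 in turn alters the splicing of Rest. Rest averaged -4.05 ± 0.63 in ALK/MYCN tumours, against -3.32 ± 0.57 in the MYCN group (SD, n = 5 each), far below the reference in both, and its difference of -0.73 ± 0.34 did not pass (limma adjusted p = 0.141). Rest was named after its values were seen and is also in the list of exon targets described last. Of the 10 genes of REST and its corepressors, 1 rose and 3 fell, where 14.2% of all genes rose and 12.2% fell. The list median was -0.15, against -0.0036 for all genes. With spike-in centring the list median was 0.10, and that of all genes was 0.25. Rcor2 fell by 0.61 ± 0.12, Sin3a by 0.32 ± 0.075 and Hdac1 by 0.29 ± 0.089 (limma adjusted p = 0.00482, 0.0121 and 0.0391), while Sin3a and Hdac1 did not pass with spike-in or median centring, nor Rcor2 with spike-in centring. Rcor3 was at 0.39 ± 0.13 (limma adjusted p = 0.0550).

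Of 19 neuronal genes known as REST targets, 13 rose and none fell in limma (0 lower at an unadjusted p under 0.05), with a median difference of 0.50. Among all genes 14.2% rose and 12.2% fell. L1cam, an axonal adhesion molecule gene, rose by 1.52 ± 0.13 and Scn2a1, a sodium channel gene, by 1.84 ± 0.21 (SE, limma adjusted p = 1.87e-04 and 5.35e-04). Snap25 and Syp, of synaptic vesicle release, rose by 0.50 ± 0.079 and 0.65 ± 0.12, and the granin gene Scg3 by 0.49 ± 0.091 (limma adjusted p = 0.00210, 0.00414 and 0.00436). Scg3 did not pass after scaling between arrays (0.13) or with the scanner-processed signals (0.41, limma adjusted p = 0.0547). With the stromal covariate 6 of the 19 rose and the median was 0.43, where 9.24% of all genes rose and their median was 0.026. These genes were listed with earlier results of these tumours known, so their direction is not independent evidence.

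Of 11 transcripts known to be bound by neuronal Hu proteins, 6 rose and 1 fell, with a median difference of 0.97. Among all genes 14.2% rose and 12.2% fell. Mapt, the tau gene, rose by 2.40 ± 0.29 and Ache, encoding acetylcholinesterase, by 1.60 ± 0.22 (SE, limma adjusted p = 7.18e-04 and 0.00121). Bdnf rose by 0.97 ± 0.27 (limma adjusted p = 0.0260). Mycn is in this list and rose by 2.85 ± 0.35 (limma adjusted p = 7.62e-04), but its probe was designed on mouse sequence and whether it reads the transgene was not tested. Gap43, the classic target of Elavl4, rose by 0.24 ± 0.078 (limma adjusted p = 0.0427) and was named after its values were seen. The Gap43 difference depended on the processing. It was -0.017 for the scanner-processed signals, -0.014 after scaling between arrays and 0.051 after median centring, and did not pass there. It was larger and passed in Cy3 signals taken without the reference (1.63, limma adjusted p = 4.08e-04). Centring on the spike-ins gave 0.50, which also passed (limma adjusted p = 9.26e-04). With the stromal covariate 4 of the 11 rose, where 9.24% of all genes did.

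Of 9 genes with exons regulated by NOVA, PTBP or SRRM4 proteins, 4 rose and none fell in limma (1 lower at an unadjusted p under 0.05). The list median was 0.19. Among all genes 14.2% rose and 12.2% fell. With the stromal covariate 1 of the 9 rose, where 9.24% of all genes did. Agrn, whose neuronal exons depend on NOVA proteins, rose by 1.11 ± 0.13 (SE, limma adjusted p = 6.24e-04). Daam1, which carries a neuronal microexon, rose by 0.45 ± 0.13 (limma adjusted p = 0.0334). Dlg4 (PSD-95), whose mRNA is destabilised by PTBP proteins in cells that are not neurons, rose by 0.25 ± 0.079 (limma adjusted p = 0.0445), and Src was at 0.19 ± 0.088 (limma adjusted p = 0.138). Neither Daam1 nor Dlg4 passed with the scanner-processed signals or after scaling between arrays. These are gene levels at 1 probe each, and exon inclusion was not measured.

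**Figure D4:**
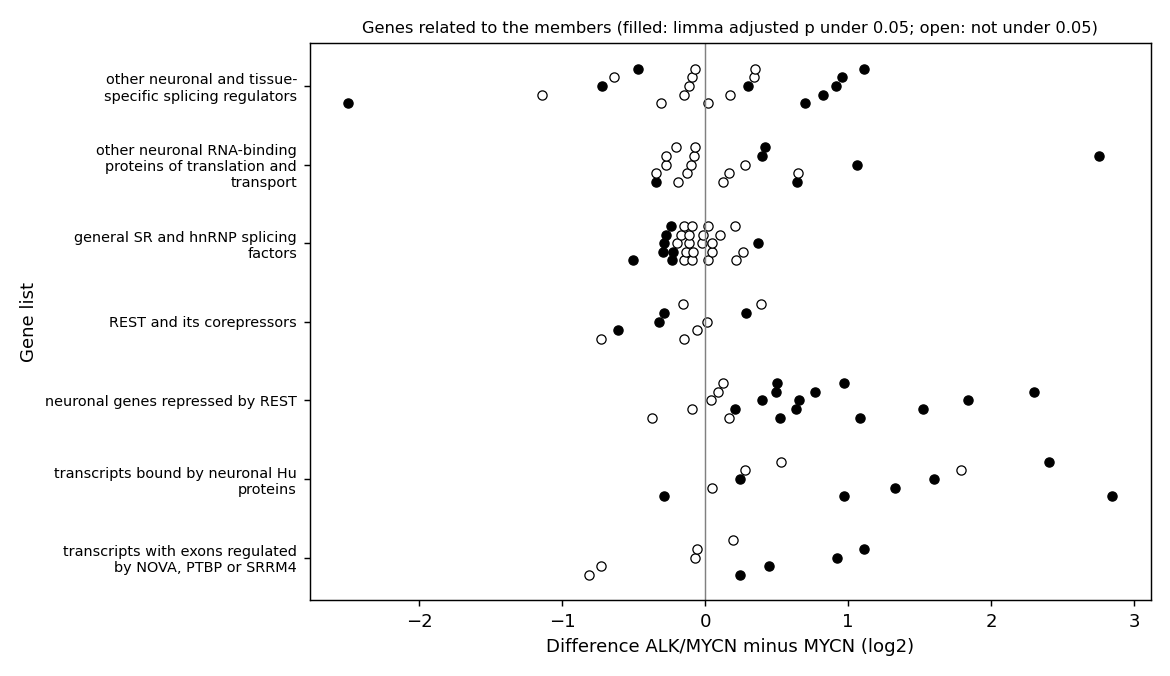
Difference ALK/MYCN minus MYCN on the log2 scale (horizontal axis) for each measured gene (point) of 7 lists related to the members (vertical axis), filled where the limma adjusted p over 22263 genes was under 0.05 and open where it was not. Genes repressed by REST and transcripts bound by Hu proteins lie mostly right of 0.

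Markers of the labelled tumour type were present in both groups. All 10 sympathetic neuroblast markers were measured. Hand2, a transcription factor gene of the sympathetic lineage, averaged 5.44 ± 0.16 in ALK/MYCN tumours, against 5.42 ± 0.21 in the MYCN group (SD, n = 5 each), and 2 of the list rose and none fell in limma (1 lower at an unadjusted p under 0.05). The endogenous Alk probe, on mouse sequence, differed by 0.065 ± 0.20 (limma adjusted p = 0.837), and whether it reads the ALK transgene was not tested. Markers of other cells moved with the groups. Endothelial markers fell in 6 of 8, macrophage markers in 5 of 8 and fibroblast markers in 1 of 7. Among all genes 12.2% fell and 14.2% rose. Mean levels over a list, centred per gene, ran from -0.84 to 0.10 in ALK/MYCN tumours, against 0.079 to 1.03 in the MYCN group for endothelium. They ran from -0.71 to -0.12 in ALK/MYCN tumours, against -0.41 to 0.99 in the MYCN group for macrophages, and from -2.10 to 0.13 in ALK/MYCN tumours, against -1.93 to 2.66 in the MYCN group for fibroblasts. Erythroid markers fell in all 3 measured of 6, with means of -0.94 to -0.40 in ALK/MYCN tumours, against -0.14 to 1.09 in the MYCN group and no overlap, and lymphocyte markers fell in 2 of 5. Of the Schwann cell markers 4 of 7 were measured and 3 rose, Sox10 and Foxd3 among them, with means from 0.18 to 1.02 in ALK/MYCN tumours, against -0.74 to -0.056 in the MYCN group, while the other 3 were not above background on enough arrays. Proliferation markers fell in 4 of 7. ALK/MYCN 3 stood apart in markers of adrenal cortex (list mean 4.12) and MYCN 2 in those of skeletal muscle (4.65). ALK/MYCN 3 and MYCN 4 were high in adipocyte markers (2.15 and 3.73), and MYCN 1 in those of muscle (2.18). The mean of all endothelial, macrophage and fibroblast markers ran from -1.15 to 0.032 in ALK/MYCN tumours, and MYCN 1 (-0.70) and MYCN 5 (0.014) lay inside this range. With the stromal covariate Elavl2 was at 1.32, Srrm4 at 0.67, Ptbp1 at -0.73 and Elavl1 at -1.20, and all passed (limma adjusted p = 0.00569, 0.0116, 0.0135 and 0.0308). The part of Schwann cell and blood cell content, strain and proliferation in these differences was not tested.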

How the data were processed

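Spot intensities of both channels were extracted by the authors with Agilent Feature Extraction 10.7.3.1 on build mm9, per the file headers; per the labels, all 10 arrays carried the tumour in Cy3. The scanner's log10 ratios and the deposited log2 value table were not tested, and the table was checked to be log2 of processed Cy3 over Cy5 (largest gap 5.01e-04, column medians -0.186 to -0.035).

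Mean signals were corrected for the median background by normexp (offset 50) and normalised by loess within arrays, with control spots at weight 0. Spots flagged as outliers (177 to 345 per array) were missing, none of them a member's, and no probe spot was saturated. A probe was kept where Cy3 was well above background on 5 or more of 10 arrays, and the brightest kept probe stood for its gene. Between 53.8% and 58.7% of spots were above background, and the number of arrays limits the precision. Of the tested genes 14163 matched RefSeq (GRCm38.p6, names only) by accession, 1019 matched by symbol or synonym, and 7081 kept the array's name. Exon annotation of the probes was not used here.

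Differences were fitted with limma 3.58.1 in R 4.3.3 (two-sided, Benjamini-Hochberg over all genes, all probes or all pairs of probes at 0.05), and the fit was tested on simulated data. Slides were read from the files. Members, lists and alternatives were chosen with earlier results of these data known. Named are all members, up to 5 genes of smallest p per list, Mycn and Alk; exceptions are said beside them, and some genes of these lists are not reported here. Lists were not tested as lists.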

Additional observations from a re-analysis of the deposited data

Results flagged for a closer look

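In ALK/MYCN tumours the Elavl1 probe at base 2341 gave -1.68 in ALK/MYCN 3, while the nearest other tumour of the group was at -2.67 and the lowest at -3.06. The gap was 0.714 of the group's range, past the critical value of 0.71 for 5 samples. Chance flags about 5% of groups, and 48 groups of member values were looked at. Without ALK/MYCN 3 the Elavl1 difference was -1.70 (limma adjusted p = 3.81e-04).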

How the results depend on the processing

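Over 25 alternatives the count of member genes that rose lay between 2 and 5 (main 4) and of those that fell between 2 and 3 (main 2). With the stromal covariate 2 rose, where 9.24% of all genes did, and with spike-in centring 5 rose, where 39.6% did. In the main fit 14.2% of all genes rose. Of 250 differences of member genes under alternatives, 227 stayed on their side of the threshold, 17 lost a call (16 of Ptbp2, 1 of Elavl4), 6 gained one (Rbfox3 and Elavl3), and 8 changed sign, all of uncalled Elavl3, Nova1 and Nova2. Averaging its 2 probes put Elavl1 at -0.72. The count of member probes that rose, 8, was 3 with the scanner-processed signals, 5 with a normexp offset of 16 and 4 with the stromal covariate. It was 5 when both channels had to be above background. That filter took out the Elavl2 probe at base 1535, the Elavl4 probe at base 1818 and the Rbfox3 probe at base 1016. These were called in the main fit and were not tested there. When 1 tumour was left out the count was 5 to 10. The count was 5 without ALK/MYCN 1, ALK/MYCN 5, MYCN 1, MYCN 2, MYCN 3 or MYCN 4. The count of probes that differed from the brightest probe of their gene, 1, was 5 with Cy3 alone, 0 with the stromal covariate (by limma, with 3 member pairs at an unadjusted p under 0.05 and 494 of all pairs called) and 1 to 2 when 1 tumour was left out, 2 without MYCN 3. With Cy3 alone the Rbfox3 probes at bases 1016 and 1461 differed from the brightest one by -0.90 and -0.62, against 0.14 and 0.019 with the reference; the cause was not tested. Tumours of the 2 groups share replicate numbers. Same-numbered tumours deviated together at correlations of -0.091 to 0.34, and 1 of 5 in each group correlated best with its own number. Such correlations cannot settle whether the numbers mark pairs, and the main fit did not pair the tumours. With the replicate block 3 member genes rose and 2 fell, and Ptbp2 was lost at 0.42 (limma adjusted p = 0.105). In that setting 11.3% of all genes rose and 9.41% fell. Dim reference signals limit the ratios of the Elavl2 probe at base 1535, the Elavl4 probe at base 1818, the Nova1 probe at base 2682 and the Rbfox3 probes at bases 1016 and 1461.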
